A study of Homo sapiens with 6 samples.

Results

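The set described here is the oxidative phosphorylation machinery of U87 cells, an established human glioma line, at the level of its transcripts: the protein-coding genes for subunits of the 4 respiratory chain complexes and the ATP synthase, in both genomes. Members were taken from 57905 gene identifiers by symbol, with no measured value in the rule. The rule took NDUFA, NDUFB, NDUFC, NDUFS and NDUFV genes with a number, NDUFAB1, SDHA to SDHD, genes starting UQCR, CYC1, subunits COX4 to COX8, genes starting ATP5F1, ATP5M or ATP5P, and the protein genes starting MT-. It gave 100 members, 87 nuclear and 13 mitochondrially encoded, and left out assembly factors, 117 matching entries that are not protein-coding and the read-through gene ATP5MF-PTCD1. NDUFA4 was placed with complex IV, where its protein is now assigned.

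Total RNA was sequenced in 6 libraries. In 3 libraries the cells were labelled siRBM47, given 100 pmol of an siRNA directed at RBM47 with lipofectamine 3000, and in 3 libraries they were labelled WT with the treatment given as "no", called control here. RBM47 binds RNA and takes part in the splicing, editing and turnover of messengers. The labels do not say whether control cells were transfected, nor whether each replicate was a culture of its own, so every p-value here reflects only how far the libraries spread, and that spread may be technical.

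Oxidative phosphorylation passes electrons from NADH through complex I, or from succinate through complex II, to ubiquinone, then through complex III and cytochrome c to complex IV, which reduces oxygen. The proton gradient that complexes I, III and IV build drives complex V, the ATP synthase. Complex II is encoded wholly in the nucleus, whereas the other complexes combine nuclear subunits, imported from the cytosol, with subunits translated inside the organelle. The mitochondrial genome is transcribed as long polycistronic RNAs from both strands, and the separate messengers, ribosomal RNAs and transfer RNAs are cut out of them afterwards.

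The compact layout of that genome bears on how reads are assigned to its genes, so the overlapping reading frames are shown first. Each line gives the upstream gene of a pair from the plus strand of GRCh38, 5′ to 3′, with the bases that it shares with the downstream gene in capitals. MT-ATP8 (chrM:8366-8572) shares 46 of its 207 bases with MT-ATP6, and MT-ND4L (chrM:10470-10766) shares 7 of its 297 bases with MT-ND4.
MT-ATP8: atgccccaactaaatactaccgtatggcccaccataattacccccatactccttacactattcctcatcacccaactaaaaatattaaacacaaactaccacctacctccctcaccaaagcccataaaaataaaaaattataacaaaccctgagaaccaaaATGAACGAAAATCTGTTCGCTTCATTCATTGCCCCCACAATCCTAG
MT-ND4L: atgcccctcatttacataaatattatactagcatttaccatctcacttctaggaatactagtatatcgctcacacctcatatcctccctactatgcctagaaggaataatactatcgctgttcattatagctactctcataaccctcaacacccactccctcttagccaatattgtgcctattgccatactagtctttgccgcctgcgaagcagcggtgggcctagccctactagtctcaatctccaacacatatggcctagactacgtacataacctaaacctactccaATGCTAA
In both pairs the capitals begin with the start codon of the downstream gene. How reads that lie in both genes were counted is not given in the sources used here, and the kit does not mark strand, so reads of MT-ND6, on the minus strand, cannot be told apart from reads of the opposite strand there.

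Among nuclear members, 3 promoters are shown for the genes COX8A, COX6A1 and SDHA, the 3 that a second count model, DESeq2, called lower (given with the nuclear genes). They are RefSeq windows on GRCh38.p14, 5′ to 3′ on the plus strand, from 250 bases before to 50 bases after the annotated start. Capitals mark a core motif of nuclear respiratory factor 1 (NRF1, CGCATGCG) or of the ETS family, to which GABPA belongs (CCGGAAGT, or ACTTCCGG on the other strand).
COX8A, chr11:63974370-63974669: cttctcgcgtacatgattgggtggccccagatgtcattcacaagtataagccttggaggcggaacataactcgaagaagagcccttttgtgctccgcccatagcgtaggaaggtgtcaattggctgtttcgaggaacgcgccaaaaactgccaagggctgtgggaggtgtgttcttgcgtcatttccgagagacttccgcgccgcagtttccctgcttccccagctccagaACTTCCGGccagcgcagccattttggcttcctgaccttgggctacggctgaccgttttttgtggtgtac
COX6A1, chr12:120437863-120438162: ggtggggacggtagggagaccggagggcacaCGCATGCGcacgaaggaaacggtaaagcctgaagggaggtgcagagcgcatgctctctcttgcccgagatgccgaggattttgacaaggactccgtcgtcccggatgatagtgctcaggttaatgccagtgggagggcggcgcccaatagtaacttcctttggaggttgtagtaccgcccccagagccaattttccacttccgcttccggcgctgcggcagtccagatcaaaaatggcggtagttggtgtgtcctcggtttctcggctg
SDHA, chr5:218070-218369: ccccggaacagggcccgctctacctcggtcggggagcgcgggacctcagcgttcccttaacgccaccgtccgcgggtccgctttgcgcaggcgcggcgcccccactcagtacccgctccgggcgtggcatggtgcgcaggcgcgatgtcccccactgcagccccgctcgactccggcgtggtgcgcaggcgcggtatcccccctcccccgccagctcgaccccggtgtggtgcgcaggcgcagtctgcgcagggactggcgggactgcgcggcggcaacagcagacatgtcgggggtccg
The COX8A window held 1 ETS core at position -19 from the start, the COX6A1 window held 1 NRF1 core at position -219, and the SDHA window held neither, nor the YY1 core. Windows were found for 69 of the 87 nuclear members, 82 windows in all. The palindromic NRF1 core was present in 13.4% of these windows, against 2.02% of all 35116 windows of the same length. The ETS core was present in 14.6% of members' windows and 4.14% of all windows, and the YY1 core AAGATGGCG (or CGCCATCTT on the other strand) in 12.2% and 1.75%. At least 1 of the 3 motifs occurred in 35.4% of members' windows and 7.42% of all windows. NRF1, GABPA and YY1 are known regulators of nuclear genes for respiratory subunits, and a match of letters is a description of the sequence and not a binding site.

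Total counts ran from 15575297 to 18128549 per library, and 14578 genes passed the filter on low counts. Control replicate 3 stood apart from the other controls: the chi-square statistic per degree of freedom over genes was 10.7 between control replicates 1 and 2, 145 and 117 between control replicate 3 and these, and 15.1 to 37.1 among siRBM47 libraries. Results are therefore given with and without that library where it moves them. RBM47 itself was not detectably lower in the libraries labelled siRBM47, with 3.54, 2.74 and 2.23 CPM (counts at one common library size), against 1.62, 1.73 and 5.75 CPM in control libraries (log2 fold change -0.11, SE 0.50, edgeR adjusted p = 0.942, and 0.76 without control replicate 3). The groups are named by their labels throughout. MTAP, which U87 cells are known to lack, had 0 counts in all 6 libraries, and CDKN2A, of the same deleted locus, had 9 counts in control replicate 1 and 0 in the others. The intermediate filament gene VIM averaged 3954 CPM in siRBM47 and 3873 CPM in control libraries, whereas the astrocyte gene GFAP had at most 28 counts in any library. The leukocyte genes PTPRC, CD3E and CD14 had at most 1, 2 and 12 counts, and the endothelial gene VWF at most 56. In RNA from bulk cultures, fewer cells of a state and less RNA per cell cannot be told apart.

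The 13 mitochondrially encoded protein genes took 3.51, 3.80 and 2.64% of all counts in the siRBM47 libraries, against 4.96, 4.0 and 2.77% in the control libraries. The means were 3.31 ± 0.605% in siRBM47 and 3.91 ± 1.10% in control (SD, n = 3 each), and the groups overlapped. The difference of -0.598 percentage points became -1.17 when control replicate 3 was left out. It was -0.0735 without control replicate 1, and leaving out siRBM47 replicate 3 gave -0.259. The 87 nuclear genes together took 1.07, 1.10 and 1.15% in siRBM47, against 1.31, 1.23 and 0.934% in control. The siRBM47 libraries lay between control replicate 3, which was lowest in the nuclear share, and control replicates 1 and 2. The 95% Wilson intervals of these shares reach at most 0.0108 percentage points to either side and cover counting error only, so the spread between libraries is far wider than counting error.

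The ratio of mitochondrially encoded to nuclear counts, which does not depend on how a library is scaled, was 3.29, 3.45 and 2.29 in siRBM47 and 3.79, 3.25 and 2.97 in control libraries. It averaged 3.01 ± 0.628 in siRBM47 and 3.34 ± 0.418 in control (SD, n = 3 each), a difference smaller than either SD. No shift of the balance between the genomes was detectable beyond this spread. The median log2 fold change of the mitochondrially encoded genes minus that of the nuclear genes was -0.23 with all libraries and 0.01 without siRBM47 replicate 3, which had the lowest ratio.

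**Figure D1:**
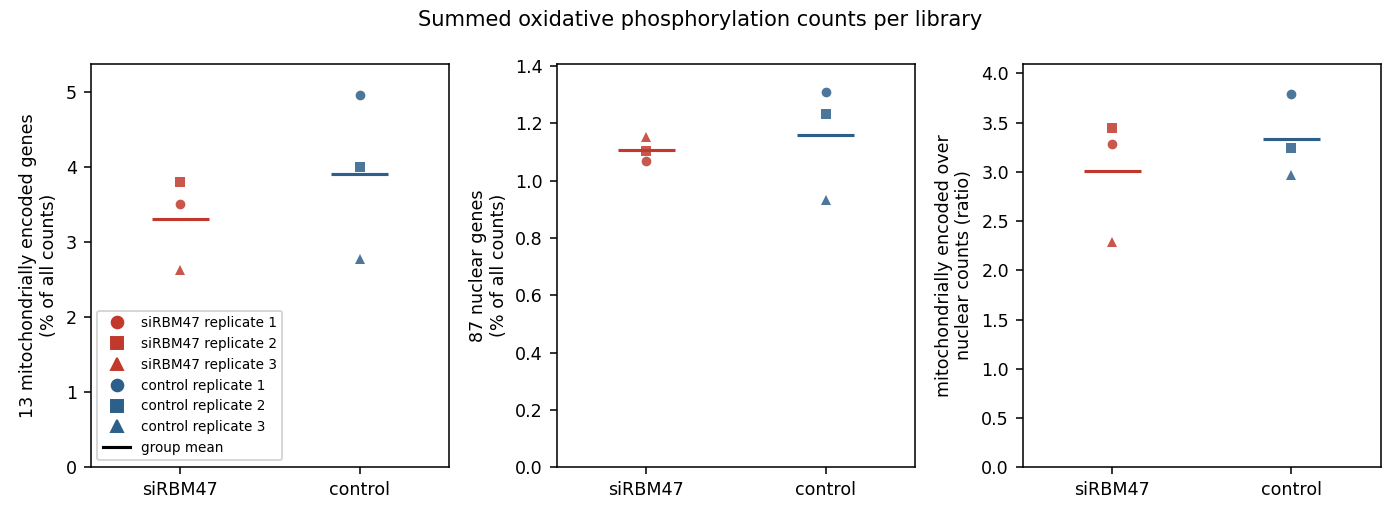
Share of all counts taken by the 13 mitochondrially encoded genes (left, %), by the 87 nuclear genes (middle, %) and their ratio (right), for the siRBM47 libraries and the control libraries, with 1 point per library and a line at the group mean. The groups overlap in all 3 panels, and control replicate 3 has the lowest nuclear share, 0.934%.

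The edgeR quasi-likelihood test with Benjamini-Hochberg adjustment over all 14578 genes called 0 of the 13 mitochondrially encoded genes and 0 of the 79 nuclear members tested at an adjusted p under 0.05. The other 8 nuclear members (COX4I2, COX6A2, COX6B2, COX7A1, COX7B2, COX8C, ATP5MGL and NDUFA13) had at most 11 counts in any library and failed the filter. Among all tested genes it called 0.137% lower and 0.0823% higher in siRBM47, so few calls were made anywhere. At an unadjusted p under 0.05, 1 mitochondrially encoded gene (MT-ND4) and 7 nuclear members were lower, and 1 nuclear member was higher, against 8.94% of all tested genes lower and 7.15% higher. With limma-voom the counts were also 0 and 0. DESeq2 called 3 nuclear members lower and 1 higher, and 0 mitochondrially encoded genes, against 2.63% lower and 1.79% higher among all tested genes. The median log2 fold change, siRBM47 over control, was -0.32 over the 13 mitochondrially encoded genes, with 11 negative and 2 positive, and -0.09 over the 79 nuclear members, with 49 negative and 30 positive, beside -0.01 over all tested genes. The share of members lower at an unadjusted p was thus near the background.

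**Figure D2:**
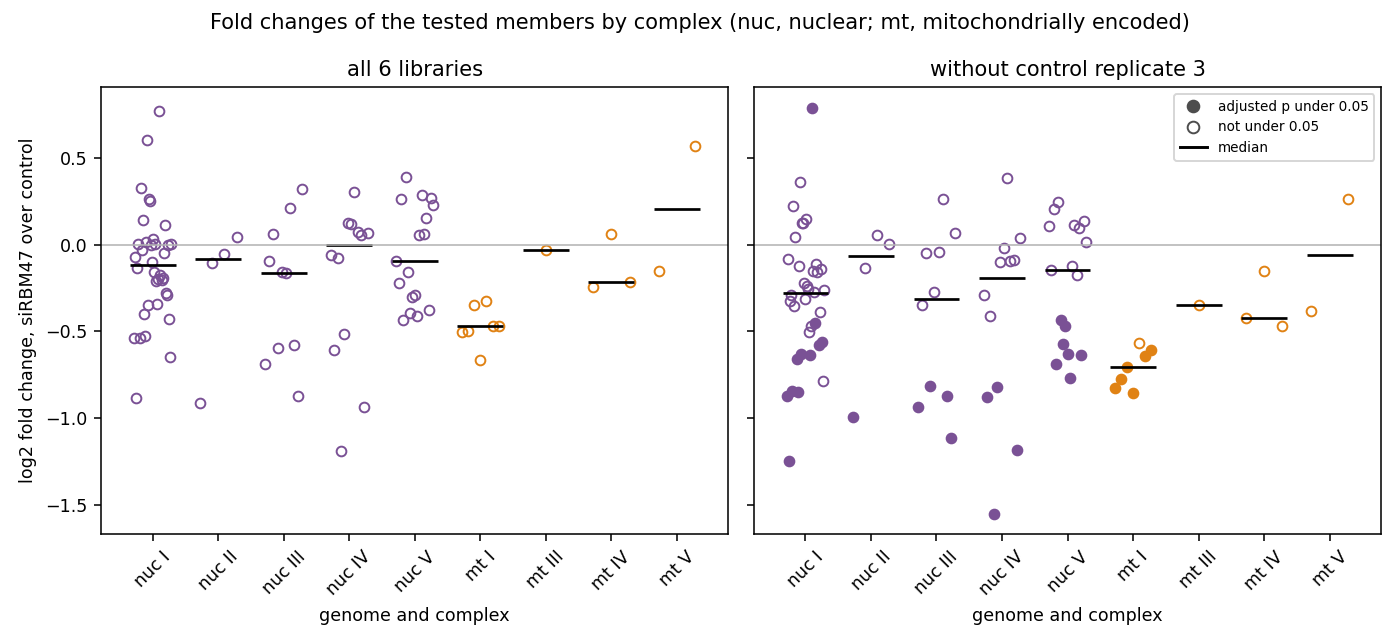
Log2 fold changes of the 92 tested members (siRBM47 over control, edgeR) by genome and complex, with 1 point per gene, a line at each median, all 6 libraries on the left and the fit without control replicate 3 on the right. Filled points have an adjusted p under 0.05: 0 with all libraries, and 27 nuclear and 6 mitochondrially encoded genes without control replicate 3.

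Complex I subunits encoded in the mitochondria were the members with the most uniform direction. All 7 of them had a negative log2 fold change, with a median of -0.47 and a range from -0.66 to -0.32. None passed the threshold. These genes encode the membrane-embedded subunits through which complex I moves protons.

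MT-ND4 (ENSG00000198886, GRCh38 chromosome M, 10760 to 12137, plus strand), which encodes one of the proton-pumping subunits, had 4815, 4996 and 3292 CPM in siRBM47 libraries, against 8910, 6918 and 4919 CPM in control libraries. Only siRBM47 replicate 2 reached the level of control replicate 3. This amounted to a log2 fold change of -0.66 (SE 0.26, 95% interval -1.25 to -0.08, edgeR adjusted p = 0.258).

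MT-ND6, the only messenger of the other strand, had 258, 254 and 194 CPM in siRBM47 and 403, 314 and 260 CPM in control libraries. All siRBM47 libraries lay below all control libraries, by a narrow margin at control replicate 3. It was the 1 mitochondrially encoded gene whose groups did not overlap, and 11.0% of all tested genes did not overlap with siRBM47 lower. On the log2 scale the fold change was -0.47 (SE 0.22, edgeR adjusted p = 0.324).

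MT-ND1 averaged 1314 ± 324 CPM in siRBM47 and 1862 ± 868 CPM in control (SD, n = 3 each), with a log2 fold change of -0.50 (SE 0.35). MT-ND2 averaged 1475 ± 364 CPM in siRBM47 and 2086 ± 824 CPM in control (log2 fold change -0.50, SE 0.31). In both, control replicate 3 was the lowest control, at 919 CPM for MT-ND1 and 1204 CPM for MT-ND2. MT-ND5, the longest of the complex I messengers, averaged 660 ± 187 CPM in siRBM47 and 914 ± 229 CPM in control (log2 fold change -0.47, SE 0.27). MT-ND3 averaged 540 ± 79.2 CPM in siRBM47 and 687 ± 379 CPM in control (log2 fold change -0.35, SE 0.38). MT-ND4L, which shares a transcript with MT-ND4, averaged 890 ± 294 CPM in siRBM47 and 1113 ± 377 CPM in control (log2 fold change -0.32, SE 0.32). The groups of all these overlapped.

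The mitochondrially encoded genes of complexes III, IV and V, apart from MT-ATP8, had log2 fold changes between -0.25 and 0.06. MT-CYB, which encodes cytochrome b of complex III, averaged 1587 ± 342 CPM in siRBM47 and 1625 ± 729 CPM in control (log2 fold change -0.03, SE 0.34). MT-CO2, which carries the copper centre that takes electrons from cytochrome c, had 5915, 6729 and 4758 CPM in siRBM47, against 7284, 5596 and 3840 CPM in control libraries (log2 fold change 0.06, SE 0.26). In MT-CO2 the libraries of the groups were interleaved. MT-CO1, the catalytic subunit of complex IV, averaged 9166 ± 1605 CPM in siRBM47 and 10881 ± 2857 CPM in control (log2 fold change -0.25, SE 0.24). MT-CO3 averaged 4884 ± 1135 CPM in siRBM47 and 5681 ± 2044 CPM in control (log2 fold change -0.22, SE 0.29). MT-ATP6, which forms part of the proton channel of complex V, averaged 2020 ± 402 CPM in siRBM47 and 2243 ± 749 CPM in control (log2 fold change -0.15, SE 0.27).

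MT-ATP8, whose product is a small subunit of complex V, was counted far less than its overlapping neighbour. It had 39, 66 and 35 counts in siRBM47 libraries and 36, 34 and 18 counts in control libraries (log2 fold change 0.57, SE 0.44, edgeR adjusted p = 0.568). Per length, MT-ATP8 averaged 12.6 FPKM (fragments per kilobase of gene, scaled to the library) in siRBM47 and 8.53 FPKM in control, whereas MT-ATP6 averaged 2947 FPKM in siRBM47 and 3259 FPKM in control. The messenger carries both reading frames, and the part of its short length and of the bases it shares in this gap was not tested. Per length the highest level among members was that of MT-CO2, at 8424 FPKM in siRBM47 and 8064 FPKM in control.

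**Figure D3:**
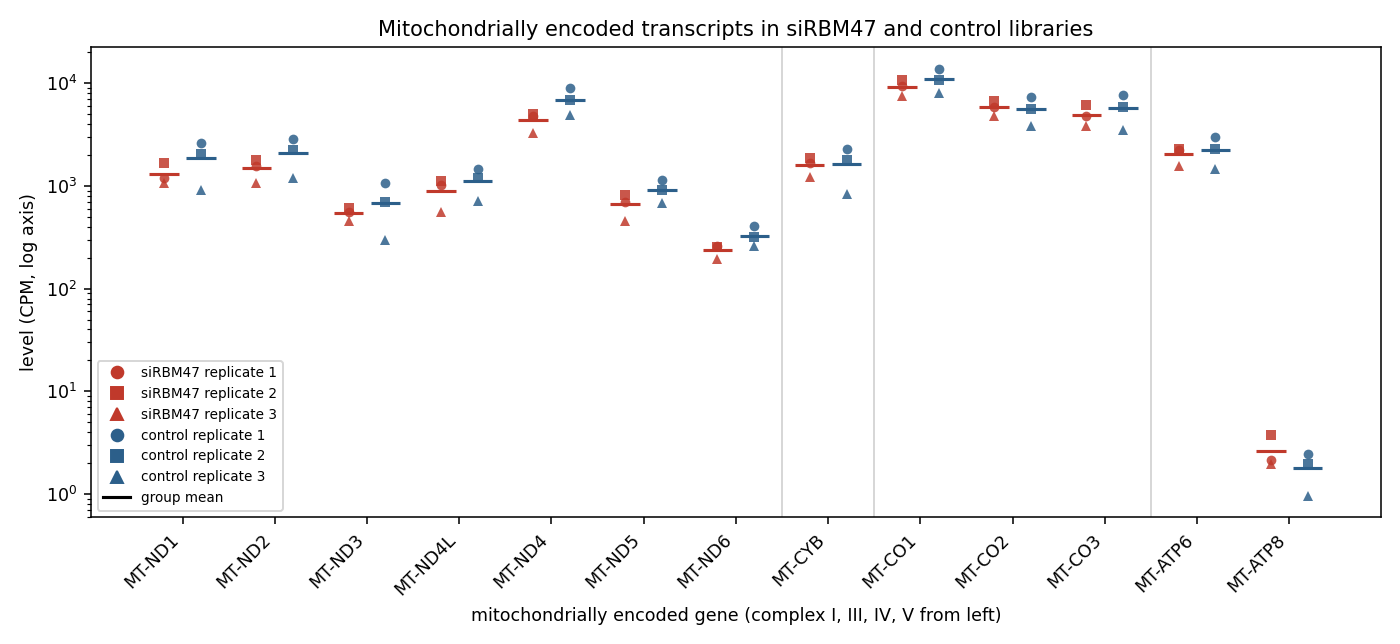
Levels of the 13 mitochondrially encoded protein genes (CPM, log axis) in siRBM47 and control libraries, with 1 point per library and a line at the group mean, grouped by complex from I on the left to V on the right. The 7 complex I genes have lower means in siRBM47, the groups of MT-CO2 interleave, and MT-ATP8 lies between 0.958 and 3.77 CPM.

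The composition of the mitochondrially encoded messengers, that is, each gene's share of the counts of the 13 genes, separated the groups for several genes, whereas the summed share overlapped. MT-ND4 took 14.1, 12.9 and 12.7% of these counts in siRBM47, against 17.0, 17.0 and 18.4% in control libraries. MT-CO2 took 17.3, 17.3 and 18.4% in siRBM47, against 13.9, 13.8 and 14.4% in control libraries. The groups were well apart in both genes, control replicate 3 included, and the 95% Wilson intervals reach at most 0.130 percentage points to either side.

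The ratio of MT-ND4 to MT-CO2 counts was 0.814, 0.742 and 0.692 in siRBM47 and 1.22, 1.24 and 1.28 in control libraries. It averaged 0.749 ± 0.0613 in siRBM47 and 1.25 ± 0.0303 in control (SD, n = 3 each), so the difference was many times the SD of either group. MT-ND4 had more counts than MT-CO2 in every control library and fewer in every siRBM47 library. These counts are not divided by gene length. Per length, MT-CO2 was above MT-ND4 in every library of both groups. The means were 8424 FPKM for MT-CO2 and 3149 FPKM for MT-ND4 in siRBM47, and 8064 and 4966 FPKM in control. The pair was picked after its values were seen and gets no test.

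In all, the shares of 7 of the 13 genes did not overlap between groups. MT-ND4, MT-ND5 and MT-ND6 were lower in siRBM47, and MT-CO2, MT-CYB, MT-ATP6 and MT-ATP8 were higher. In MT-ND5, MT-ND6 and MT-ATP8 the Wilson intervals of the nearest libraries overlapped, so those gaps were not clearly beyond counting error. MT-ND5 spanned 2.087 to 2.155% in siRBM47 replicate 2 and 2.150 to 2.215% in control replicate 1. MT-ND6 spanned 0.736 to 0.779% in siRBM47 replicate 1 and 0.751 to 0.790% in control replicate 1. MT-ATP8 spanned 0.0046 to 0.0086% in siRBM47 replicate 1 and 0.0034 to 0.0067% in control replicate 2. MT-CYB took 4.90, 4.84 and 4.68% in siRBM47, against 4.32, 4.40 and 3.10% in control libraries. MT-ND5 took 2.05, 2.12 and 1.76% in siRBM47, against 2.18, 2.26 and 2.56% in control libraries. MT-CO1, the most counted gene, took 27.9 ± 0.720% in siRBM47 and 27.7 ± 2.20% in control (SD, n = 3 each), and its groups overlapped, as did those of MT-CO3, MT-ND1, MT-ND2, MT-ND3 and MT-ND4L. By CPM level, 11.0% of all tested genes did not overlap with siRBM47 lower, and 11.6% with siRBM47 higher. That measure differs from a share within the 13 genes, and by it MT-ND6 alone of the 13 did not overlap. These percentages are therefore no background for the 7 genes. Of the 78 pairs of mitochondrially encoded genes, 38 had ratios that did not overlap between groups. Every pair with MT-ATP8, at 18 to 66 counts per library, was among these 38, and the share over other pairs of genes was not computed. Shares of 1 total are tied to each other and pairs share genes, so neither the 7 genes nor the 38 pairs are counts of independent results.

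**Figure D4:**
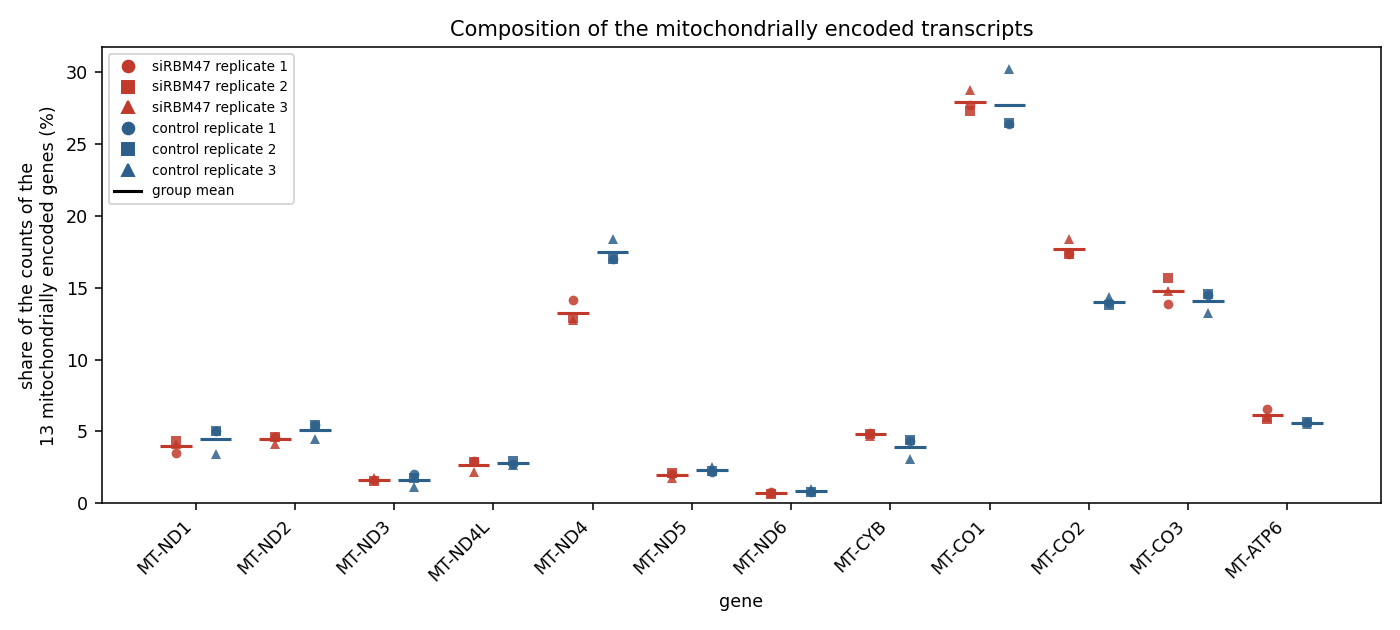
Share of the counts of the 13 mitochondrially encoded genes taken by each (%), in siRBM47 and control libraries, with 1 point per library and a line at the group mean. MT-ATP8, under 0.01% in every library, is not drawn. MT-ND4 has 12.7 to 14.1% in siRBM47 and 17.0 to 18.4% in control, and MT-CO2 has 17.3 to 18.4% in siRBM47 and 13.8 to 14.4% in control.

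The 2 mitochondrial ribosomal RNAs, which come from the start of the same heavy-strand transcript, were also measured. MT-RNR1 had 272, 310 and 228 CPM in siRBM47, against 707, 491 and 380 CPM in control libraries (log2 fold change -0.96, SE 0.25, edgeR adjusted p = 0.119). MT-RNR2 had 4050, 3474 and 3261 CPM in siRBM47, against 6697, 4823 and 6755 CPM in control libraries (log2 fold change -0.76, SE 0.20, edgeR adjusted p = 0.129). The groups did not overlap in either gene. Neither passed with edgeR on all libraries, and both were called lower by DESeq2 and by edgeR without control replicate 3. Nuclear copies of mitochondrial genes can take or give reads: the copy MTATP6P1 averaged 164 CPM in siRBM47 and 124 CPM in control, and MTND2P28 133 CPM in siRBM47 and 164 CPM in control.

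Nuclear complex I genes, 36 of 37 tested, had a median log2 fold change of -0.12, with 24 negative and 12 positive. The member with the smallest p on the lower side was NDUFA11 (ENSG00000174886), which encodes a membrane-arm subunit. NDUFA11 had 10.4, 15.0 and 11.5 CPM in siRBM47, against 32.6, 25.8 and 9.74 CPM in control libraries. Control replicate 3 lay below every siRBM47 library, and the other controls lay above them all. Its log2 fold change was -0.88 (SE 0.39, 95% interval -1.75 to -0.01, edgeR adjusted p = 0.305).

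NDUFC2 (ENSG00000151366, chromosome 11, 78068304 to 78080219, minus strand), another membrane-arm subunit, was the member with the smallest p on the higher side. It had 27.0, 21.7 and 26.2 CPM in siRBM47, against 15.6, 13.4 and 15.1 CPM in control libraries. All siRBM47 libraries lay above all control libraries, control replicate 3 included. In edgeR its log2 fold change was 0.77, with SE 0.20, a 95% interval of 0.32 to 1.21 and an adjusted p of 0.119. DESeq2 gave an adjusted p of 0.0234, and without control replicate 3 edgeR gave 0.79 with an adjusted p of 0.0124. The read-through gene NDUFC2-KCTD14 overlaps 16.3% of its exon bases on the same strand and had 0 counts in every library. How reads that lie in both genes were counted is not given in the sources used here, so the level of NDUFC2 is uncertain to that extent. NDUFB1, an accessory subunit, was the next on the higher side, with 77.3 ± 6.75 CPM in siRBM47 and 51.1 ± 19.9 CPM in control (log2 fold change 0.60, SE 0.27, edgeR adjusted p = 0.321).

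The nuclear core subunits of complex I named here had log2 fold changes between -0.43 and -0.00, apart from NDUFV2, which had few counts. NDUFV1, which holds the NADH site, averaged 135 ± 25.6 CPM in siRBM47 and 182 ± 32.2 CPM in control (log2 fold change -0.43, SE 0.22). NDUFS1, the largest subunit, had a log2 fold change of -0.18 (SE 0.17), NDUFS3 -0.19 (SE 0.26), NDUFS7 -0.29 (SE 0.22) and NDUFS8 -0.00 (SE 0.20). NDUFS5, the member of nuclear complex I with the highest level per length, averaged 502 FPKM in siRBM47 and 463 FPKM in control, and 277 ± 9.42 CPM in siRBM47 and 256 ± 98.7 CPM in control (log2 fold change 0.11, SE 0.27). NDUFV2, NDUFA7 and NDUFA13 had at most 19 counts in any library although their products are constitutive subunits. Between 21.0 and 32.3% of the exon bases of these genes overlap another gene on the same strand, and their levels are uncertain. COX8A, with 34.5% of its exon bases overlapped in this way, had 1061 to 2528 counts per library. The part of overlap in the low counts was not tested.

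Complex II has 4 subunits, all nuclear, of which only SDHA had an unadjusted p under 0.05. SDHA (ENSG00000073578, chromosome 5, 218241 to 256700, plus strand), the flavoprotein that oxidizes succinate, had 73.9, 94.5 and 87.1 CPM in siRBM47, against 166, 174 and 140 CPM in control libraries. The groups were clearly apart. Its log2 fold change was -0.91 (SE 0.19, 95% interval -1.32 to -0.49), and SDHA had the smallest p of all 92 tested members, with an edgeR adjusted p of 0.0755 and a DESeq2 adjusted p of 0.00144. Without control replicate 3 its log2 fold change was -1.0 (edgeR adjusted p = 0.000716).

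The partners of SDHA differed little. SDHB, the iron-sulphur subunit, averaged 101 ± 10.9 CPM in siRBM47 and 109 ± 11.8 CPM in control (log2 fold change -0.11, SE 0.18). The membrane anchor SDHC, the complex II member with the highest level per length, averaged 106 ± 14.2 CPM in siRBM47 and 110 ± 13.8 CPM in control (log2 fold change -0.05, 95% interval -0.47 to 0.37). The other anchor, SDHD, averaged 45.8 ± 9.56 CPM in siRBM47 and 44.5 ± 3.78 CPM in control (log2 fold change 0.04, 95% interval -0.41 to 0.50). The interval of SDHA, which ends at -0.49, did not reach the intervals of SDHC and SDHD but overlapped slightly with that of SDHB. A test of the difference between subunits was not made. SDHA has near copies in the genome, of which SDHAP1 averaged 11.0 CPM in siRBM47 and 12.3 CPM in control, and SDHAP4 11.9 CPM in siRBM47 and 10.8 CPM in control. How reads that fit SDHA and a copy equally were counted is not given in the sources used here, so the level of SDHA is uncertain to that extent.

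All 10 complex III members were tested, with a median log2 fold change of -0.16. UQCRHL, the near-identical copy of the hinge protein gene UQCRH, had the smallest p, with 4.20, 7.26 and 6.26 CPM in siRBM47 and 11.6, 13.9 and 6.92 CPM in control libraries (log2 fold change -0.87, SE 0.32, edgeR adjusted p = 0.238). UQCRH itself averaged 177 ± 25.0 CPM in siRBM47 and 265 ± 106 CPM in control (log2 fold change -0.58, SE 0.30). Reads of the pair cannot be told apart with certainty, and UQCRHL was the far lower of them.

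The remaining 2 complex III members with an unadjusted p under 0.05 were CYC1 and UQCRB. CYC1, which encodes cytochrome c1, had 102, 145 and 134 CPM in siRBM47, against 237, 248 and 128 CPM in control libraries (log2 fold change -0.69, SE 0.27, edgeR adjusted p = 0.257). UQCRB, a small subunit at the ubiquinone-binding side, had 152, 175 and 146 CPM in siRBM47, against 312, 244 and 159 CPM in control libraries (log2 fold change -0.59, SE 0.25, edgeR adjusted p = 0.277). In both, control replicate 3 lay within the siRBM47 libraries. The large core subunits UQCRC1 and UQCRC2 had log2 fold changes of -0.16 (SE 0.20) and -0.16 (SE 0.19), and the Rieske protein gene UQCRFS1 0.21 (SE 0.18). UQCRQ, with the highest level per length in the complex, averaged 382 ± 22.4 CPM in siRBM47 and 306 ± 113 CPM in control (log2 fold change 0.32, SE 0.27).

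Complex IV held the nuclear members with the most negative fold changes, although the median over its 12 tested nuclear members was -0.00, with 6 negative and 6 positive. COX6A1 (ENSG00000111775, chromosome 12, 120438090 to 120440742, plus strand), a regulatory subunit whose promoter is shown above, had 38.7, 56.1 and 39.0 CPM in siRBM47, against 146, 115 and 43.6 CPM in control libraries. Control replicate 3 lay among the siRBM47 libraries. The resulting log2 fold change was -1.19 (SE 0.38, 95% interval -2.05 to -0.33, edgeR adjusted p = 0.186, DESeq2 adjusted p = 0.0448).

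COX8A (ENSG00000176340, chromosome 11, 63974607 to 63976543, plus strand), a small membrane-spanning subunit of the complex, had 61.5, 74.3 and 59.3 CPM in siRBM47, against 150, 145 and 78.2 CPM in control libraries. The groups did not overlap. Its log2 fold change was -0.94 (SE 0.26, 95% interval -1.52 to -0.35, edgeR adjusted p = 0.139, DESeq2 adjusted p = 0.0302). Another gene overlaps 34.5% of the exon bases of COX8A on the same strand, and 13% of those of COX6A1.

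On the higher side of complex IV stood COX7A2L, known for its part in joining complexes III and IV into supercomplexes. It had 130, 148 and 144 CPM in siRBM47, against 104, 113 and 127 CPM in control libraries. The groups did not overlap, and the log2 fold change was 0.30 (SE 0.17, edgeR adjusted p = 0.432). COX4I1, the widely expressed isoform of subunit IV, averaged 420 ± 22.5 CPM in siRBM47 and 438 ± 137 CPM in control (log2 fold change -0.06, SE 0.24). NDUFA4 averaged 223 ± 25.4 CPM in siRBM47 and 213 ± 7.03 CPM in control (log2 fold change 0.06, SE 0.17). COX6B1, the complex IV member with the highest level per length, averaged 171 ± 32.0 CPM in siRBM47 and 245 ± 104 CPM in control (log2 fold change -0.52, SE 0.32).

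Several complex IV subunits exist as paired isoforms, and in each pair the widely expressed form accounted for nearly all counts. COX4I2 and COX7B2 had 0 counts in all 6 libraries, each allowing up to 3 counts per library. COX6A2 and COX7A1, the heart and muscle forms, had at most 1 and 2 counts in any library, the testis forms COX6B2 and COX8C at most 10 and 2. COX7A2, the partner of COX7A1, averaged 125 ± 3.91 CPM in siRBM47 and 115 ± 20.7 CPM in control (log2 fold change 0.12, SE 0.19). A switch to another isoform was therefore not detectable at this depth in either group.

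Complex V had 17 of 18 nuclear members tested, and none at an unadjusted p under 0.05. The median log2 fold change was -0.09, with 9 negative and 8 positive, in a range from -0.43 to 0.39. ATP5MC2, one of the genes for the rotating c-ring, averaged 263 ± 41.9 CPM in siRBM47 and 345 ± 83.5 CPM in control (log2 fold change -0.39, SE 0.23). The other c-ring genes ATP5MC1 and ATP5MC3 had log2 fold changes of -0.16 (SE 0.27) and -0.30 (SE 0.21). ATP5F1B, the catalytic beta subunit and the complex V member with the highest level per length, averaged 618 ± 74.2 CPM in siRBM47 and 721 ± 77.6 CPM in control (log2 fold change -0.22, SE 0.18).

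The positive side of complex V was small in size. ATP5F1E, the epsilon subunit of the central stalk, had 377, 355 and 418 CPM in siRBM47, against 355, 292 and 231 CPM in control libraries (log2 fold change 0.39, SE 0.20, edgeR adjusted p = 0.385). ATP5PF and ATP5MJ did not overlap between groups, with siRBM47 higher, at log2 fold changes of 0.27 (SE 0.19) and 0.29 (SE 0.20). With NDUFC2 and COX7A2L they made 4 of 79 tested nuclear members that did not overlap with siRBM47 higher, and SDHA, COX8A and NDUFV2 were the 3 that did not overlap with siRBM47 lower, against 11.6% and 11.0% of all tested genes. As shares of the 79 members, both counts lay under the background.

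**Figure D5:**
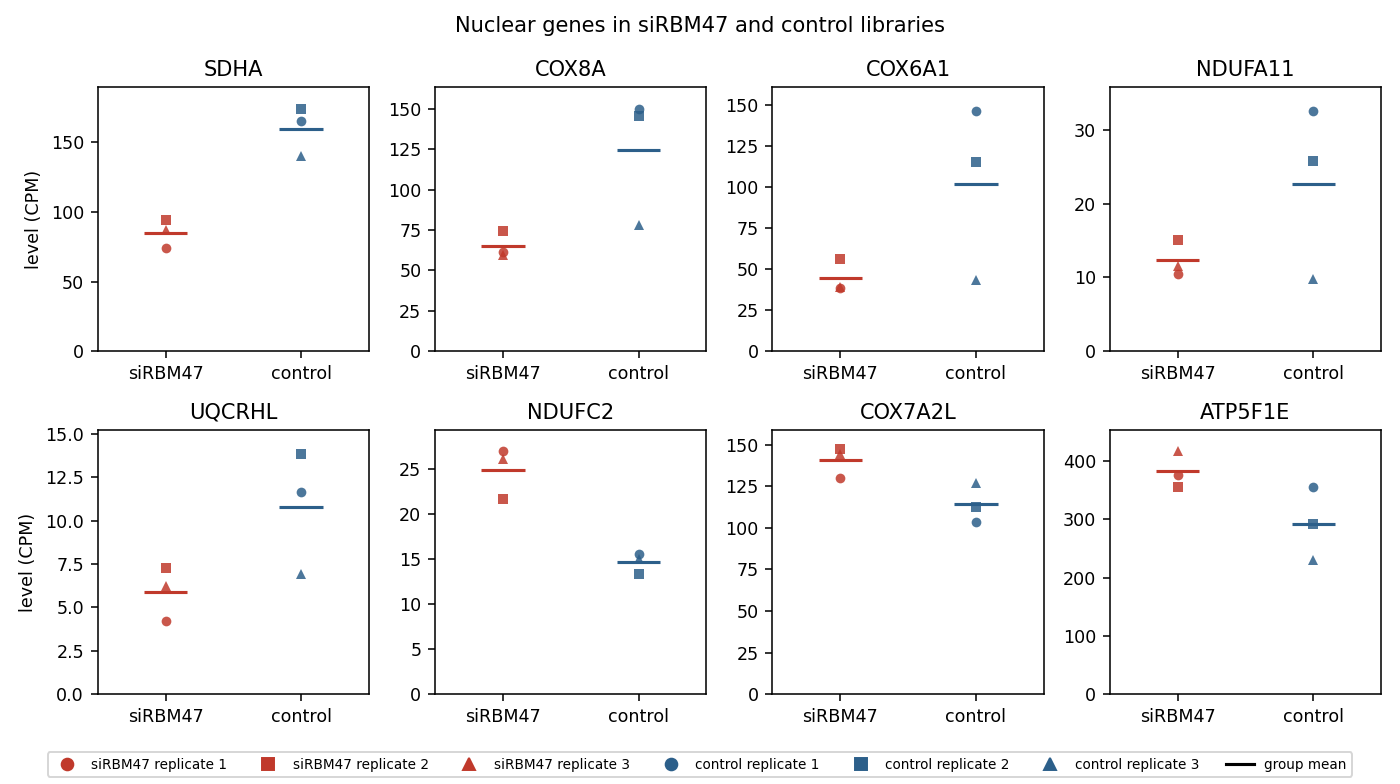
Levels (CPM, axes from 0) of 8 nuclear members in siRBM47 and control libraries, with 1 point per library and a line at the group mean. In SDHA, COX8A, NDUFC2 and COX7A2L the groups do not overlap, and in COX6A1 and NDUFA11 control replicate 3, at 43.6 and 9.74 CPM, lies within or below the siRBM47 libraries.

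Leaving out control replicate 3 gave more calls in both gene sets than any other alternative that was run. In the edgeR fit of the remaining 5 libraries, 26 of 79 nuclear members were called lower and 1 (NDUFC2) higher, against 11.3% of all tested genes lower and 10.1% higher. Of the mitochondrially encoded genes, 6 were called lower, all of complex I (MT-ND1 to MT-ND6 without MT-ND4L), and 0 higher. MT-ND4 then had a log2 fold change of -0.86 (SE 0.18, edgeR adjusted p = 0.00468), whereas MT-CO2 had -0.15 (SE 0.17, edgeR adjusted p = 0.55). The medians moved to -0.26 over nuclear members and -0.57 over mitochondrially encoded genes, beside 0.02 over all tested genes.

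The calls of that fit fell in every complex: 10 lower in nuclear complex I, 1 in complex II (SDHA), 4 in complex III, 4 in complex IV and 7 in complex V. The lowest adjusted p were those of COX6A1, at 0.000135 with a log2 fold change of -1.55 (SE 0.19), and COX8A, at 0.000223 with -1.18 (SE 0.15). The 4 complex III genes were CYC1, UQCRB, UQCRH and UQCRHL, and the 4 of complex IV were COX5A, COX6A1, COX6B1 and COX8A. The complex V calls included all 3 c-ring genes, with ATP5MC2 at -0.57 (edgeR adjusted p = 0.0208). By contrast, without control replicate 1 the medians were 0.02 over nuclear members and -0.03 over mitochondrially encoded genes, with 0 calls in either set, so the mitochondrially encoded median moved further than without control replicate 3. The nuclear median was also near 0, at -0.02, without control replicate 2, and the mitochondrially encoded median was -0.12 without siRBM47 replicate 3.

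Control replicate 3 was below the mean of control replicates 1 and 2 in 70 of the 79 tested nuclear members and in 13 of the 13 mitochondrially encoded genes. The median difference, on log2 CPM, was -0.64 over the nuclear members and -0.90 over the mitochondrially encoded genes, beside 0.01 over all tested genes. Gene length moved with this difference, with a Spearman correlation of 0.43 across the 79 nuclear members and 0.26 across all 14578 tested genes, both within the same libraries. The nuclear members are short, with a median length of 2304 bases beside 4535 bases over all tested genes. The correlation of length with the log2 fold change of all libraries was 0.11 over nuclear members and 0.02 over all tested genes. The part of gene length, or of any other property of control replicate 3, in the results was not tested.

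Genes that serve the complexes without being subunits were taken from lists of known factors. Among 44 tested assembly factors edgeR called 0; at an unadjusted p under 0.05 it had 2 lower and 2 higher, a smaller share than the 8.94% lower and 7.15% higher of all tested genes, with a median log2 fold change of -0.00. COX16, an assembly factor of complex IV, had 65.8, 48.9 and 58.4 CPM in siRBM47, against 38.0, 34.2 and 32.6 CPM in control libraries (log2 fold change 0.72, SE 0.19, edgeR adjusted p = 0.12). Its groups did not overlap, and DESeq2 gave an adjusted p of 0.0286.

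Of 30 tested genes for transcription, RNA handling and translation in mitochondria, 0 were called, and the unadjusted p was under 0.05 for 1 lower and 1 higher gene, again a smaller share than over all tested genes. TEFM, the elongation factor of the mitochondrial RNA polymerase, averaged 16.6 ± 1.90 CPM in siRBM47 and 10.5 ± 2.15 CPM in control (log2 fold change 0.66, SE 0.23, edgeR adjusted p = 0.221). The polymerase POLRMT averaged 81.4 ± 10.4 CPM in siRBM47 and 110 ± 21.7 CPM in control (log2 fold change -0.43, SE 0.21). LRPPRC, which stabilizes mitochondrial messengers, averaged 95.2 ± 19.7 CPM in siRBM47 and 93.0 ± 10.2 CPM in control (log2 fold change 0.03, SE 0.21). TFAM, which packages the mitochondrial genome and starts its transcription, averaged 36.2 ± 7.76 CPM in siRBM47 and 29.8 ± 1.28 CPM in control (log2 fold change 0.28, SE 0.20).

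Of 15 tested regulators of mitochondrial biogenesis, 0 were called, and the unadjusted p was under 0.05 for 2 lower genes and 0 higher, beside 8.94% lower and 7.15% higher of all tested genes. ESRRA, a nuclear receptor that activates genes for respiration, had 28.2, 38.5 and 35.6 CPM in siRBM47, against 69.9, 68.7 and 42.9 CPM in control libraries. Its groups did not overlap (log2 fold change -0.83, SE 0.24, edgeR adjusted p = 0.146, DESeq2 adjusted p = 0.0457, and -1.02 with an adjusted p of 0.00134 in edgeR without control replicate 3). NRF1, whose core motif was searched above, averaged 17.0 ± 0.819 CPM in siRBM47 and 18.9 ± 3.34 CPM in control (log2 fold change -0.15, SE 0.21), and GABPA 28.6 ± 7.04 CPM in siRBM47 and 23.0 ± 4.55 CPM in control (log2 fold change 0.31, SE 0.24). The coactivator gene PPARGC1A was at 2.82, 3.09 and 2.68 CPM in siRBM47 and 1.22, 1.73 and 6.28 CPM in control libraries, with control replicate 3 the highest.

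The tricarboxylic acid cycle, which supplies NADH and succinate, had 18 tested genes with 0 calls, and 1 gene, higher, at an unadjusted p under 0.05. That gene was PDHB, a subunit of pyruvate dehydrogenase, with 108 ± 7.86 CPM in siRBM47 and 82.5 ± 0.376 CPM in control (log2 fold change 0.38, SE 0.17, edgeR adjusted p = 0.297). Of 17 tested genes for the outer membrane, import and mitochondrial chaperones, 0 were called, and 1 gene, lower, had an unadjusted p under 0.05. SLC25A6, an ADP/ATP carrier that exports the ATP made by complex V, had 13.1, 16.7 and 17.8 CPM in siRBM47, against 36.1, 37.9 and 30.0 CPM in control libraries (log2 fold change -1.13, SE 0.21, edgeR adjusted p = 0.0716, DESeq2 adjusted p = 0.000368). Its groups were far apart, control replicate 3 included. Without control replicate 3, where edgeR called 11.3% of all tested genes lower and 10.1% higher, 6 of 44 assembly factors were called lower and 2 higher. Of the mitochondrial expression genes, 1 of 30 was called lower and 1 higher, and 1 of 15 regulators and 1 of 18 genes of the cycle were called lower. Apart from the import list, with 5 of 17 lower, these counts were near or under the shares of all tested genes.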

How the data were processed

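RNA of 3 siRBM47 and 3 control libraries was sequenced, with groups and replicate numbers taken from the titles. The submitters' processing notes name HISAT2 2.0.5 for alignment, featureCounts 1.5.0-p3 for counting and the build hg38. Libraries came from a kit that does not mark strand, per the labels' protocols. The annotation release, strand setting and filters were not given in the sources used here. Per the file headers, the authors deposited 1 table per library with whole-number counts and, in another column, FPKM. FPKM, which the authors scaled by gene length, served to compare levels between genes and to derive gene length, and for no test. Symbols came from a table of gene names, which left 5909 identifiers without one, positions and mitochondrial reading frames from GENCODE 29 on GRCh38, and promoters from RefSeq.

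The members and lists were chosen with earlier results of these data known. After filterByExpr (minimum count 10), edgeR 4.0.16 in R 4.3.3 ran its quasi-likelihood test with TMM factors and without a block, adjusted by Benjamini-Hochberg over all 14578 genes and a threshold of 0.05. A standard error is the size of the log2 fold change divided by the root of its F statistic, and CPM use TMM-scaled library sizes. The edgeR step was tested on simulated data. Sets are described by counts and medians beside all tested genes, and sums and shares of counts have no test. Genes named were RBM47, all tested mitochondrially encoded genes, in each complex the nuclear member with the smallest p in each direction and the highest mean FPKM, isoform groups of complex IV, 7 regulators, and the smallest p of each related list; others were named after their values were seen, and 1 member is not reported here by name. Alternatives were RLE and upper-quartile factors, scaling without mitochondrially encoded genes, no filter, a minimum count of 50, a replicate block, each library left out, DESeq2 1.42.0 and limma-voom (limma 3.58.1). Wilson intervals and the limit of 3 counts for a count of 0 cover counting error only.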

Additional observations from a re-analysis of the deposited data

How the results depend on the processing

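The count of 0 nuclear members called lower became 4 without a filter on low counts (COX6A1, COX8A, NDUFA11 and SDHA) and 3 with DESeq2, and ran from 0 to 26 when each library was left out in turn, with 26 without control replicate 3 only. The count called higher became 1 with DESeq2 and ran from 0 to 1 (NDUFC2, without control replicate 3). The count of mitochondrially encoded genes called lower ran from 0 to 6, with 6 without control replicate 3 only, and other alternatives gave 0. Of all 14578 tested genes, 32 were called, against 644 with DESeq2 and 3117 without control replicate 3. Without the filter more genes were tested, 27110 in all and 85 nuclear members, and 804 of all genes were called, 478 lower and 326 higher. The same replicate numbers did not pair the libraries: correlations of deviations were -0.04, 0.13 and 0.12, and 3 of 6 libraries correlated best with their own number. With the replicate block, 0 nuclear and 0 mitochondrially encoded members were called (39 of all genes), with medians of -0.08 and -0.23. The block turned the log2 fold changes of RBM47 to 0.12, MT-CYB to 0.062 and PPARGC1A to 0.22, and limma-voom to 0.10, 0.060 and 0.21. Over 52 named genes and 726 alternative values, 651 kept direction and side of the threshold, 48 newly passed it (25 of them without control replicate 3) and 27 changed sign, in 13 genes, 10 of them only by leaving out a library; the cause was not tested. Over the 6 leave-outs the log2 fold change ran from -0.39 to 0.76 for RBM47, -0.70 to 0.11 for MT-ND3, -0.35 to 0.28 for MT-CYB, -0.15 to 0.31 for MT-CO2, -0.47 to 0.054 for MT-CO3, -0.38 to 0.11 for MT-ATP6, -0.16 to 0.39 for NDUFS5, -0.14 to 0.16 for SDHD, -0.15 to 0.054 for SDHC, -0.29 to 0.15 for COX4I1, -0.020 to 0.23 for COX7A2, -0.47 to 0.95 for PPARGC1A and -0.13 to 0.19 for LRPPRC. Depth limits MT-ATP8 and the isoform genes at 0 to 10 counts.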

Other observations

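Genes for transfer RNAs of the light strand, which lie between MT-ND2 and MT-CO1, were chosen for mention after their values were seen. The kit does not mark strand, so their reads cannot be told apart from reads of the opposite strand there. MT-TA, of the same cluster, had at most 2 counts in any library. MT-TP, a light-strand gene elsewhere, had a log2 fold change of -0.38 (edgeR adjusted p = 0.51, and -0.60 with an edgeR adjusted p of 0.0385 without control replicate 3). Transfer RNAs are short, and a library of this kind catches them poorly or as parts of longer precursors. MT-TY had 2.71, 5.49 and 1.62 CPM in siRBM47, against 27.0, 25.0 and 8.09 CPM in control libraries (log2 fold change -2.61, SE 0.53, edgeR adjusted p = 0.0755, DESeq2 adjusted p = 2.7e-05, and -2.99 with an edgeR adjusted p of 7.2e-05 without control replicate 3). MT-TC had 39.0, 68.7 and 43.6 CPM in siRBM47, against 203, 170 and 40.2 CPM in control libraries (log2 fold change -1.45, SE 0.49, edgeR adjusted p = 0.205, DESeq2 adjusted p = 0.0397, and -1.88 with an edgeR adjusted p of 6.8e-05 without control replicate 3). MT-TN averaged 162 ± 48.9 CPM in siRBM47 and 302 ± 164 CPM in control (SD, n = 3 each), with a log2 fold change of -0.90 (edgeR adjusted p = 0.316, DESeq2 adjusted p = 0.201, and -1.27 with an edgeR adjusted p of 0.00114 without control replicate 3). In MT-TY the groups did not overlap, whereas in MT-TC control replicate 3 lay among the siRBM47 libraries. A lower level was not particular to light-strand genes. MT-TG, of the plus strand, had 1, 2 and 0 counts in siRBM47, against 24, 18 and 14 counts in control libraries. Its log2 fold change was -4.16 (SE 0.76, edgeR adjusted p = 0.0716), at very low counts. The other plus-strand genes tested, MT-TL1 and MT-TT, had log2 fold changes of 0.10 and -0.52, and their groups overlapped.

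NDUFA4L2, a relative of NDUFA4 outside the set, is known to be induced by low oxygen. It averaged 5.79 ± 0.211 CPM in siRBM47 and 4.01 ± 0.828 CPM in control (log2 fold change 0.53, SE 0.27, edgeR adjusted p = 0.371).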
